A study of Mus musculus with 9 samples.

Results

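The comparison asked where trimethylation of histone H3 at lysine 36 (H3K36me3) joined trimethylation at lysine 4 (H3K4me3) in mouse spermatocytes that carry a catalytically weak PRDM9, against the same cells with the normal enzyme. It sets against each other 2 of the 9 libraries of the series, the H3K36me3 ChIP-seq library of EP mice and that of wild-type (WT) mice. Each is read relative to the H3K4me3 list of its genotype, which comes from 2 further libraries. The lists of both marks hold 412 EP and 6894 WT intervals, together 7306 of the 32986 intervals in the 6 deposited peak lists. An interval of an H3K4me3 list is called double-marked here when an interval of the double-marked list of the same genotype overlaps it by 1 bp or more. The covered share is the percentage of its bases that lie in the double-marked list.

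The WT mice were C57BL/6J with the label PRDM9-WT. The EP mice were C57BL/6J-Prdm9<em2Kpgn>/Kpgn, homozygous PRDM9-EP/EP, in which glutamate 360 of PRDM9 is replaced by proline. A further genotype of the series, EK (C57BL/6J-Prdm9<em3Kpgn>/Kpgn, PRDM9-EK/EK, with lysine at residue 360), is used below only for comparison, through its double-marked and H3K4me3 lists. The labels call each substitution a severe catalytic hypomorph, meaning an enzyme with little activity left. All spermatocytes came from animals 14 days after birth, and each genotype had 2 H3K4me3 libraries and 1 H3K36me3 library. By the labels, the WT H3K36me3 library was re-analysed earlier data and the EP and EK ones were new, so genotype and library source cannot be told apart in any H3K36me3 comparison of a mutant with WT. The lists carry no expression values, so the labelled cell type could not be checked against marker genes.

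PRDM9 binds DNA through an array of zinc fingers and, in early meiosis, methylates both lysine 4 and lysine 36 of histone H3 on the nucleosomes beside its binding sites. Such sites can become the places where meiotic recombination starts, and the reader protein ZCWPW1 recognises the 2 marks together. H3K36me3 is also laid down along the bodies of transcribed genes by another enzyme, SETD2, which travels with RNA polymerase II. In a bulk ChIP-seq list, fewer cells carrying a mark at a site and less of the mark per cell cannot be told apart.

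In the WT list 6892 of 18427 H3K4me3 intervals were double-marked, 37.4% with a 95% Wilson interval of 36.7 to 38.1%. In EP the count was 412 of 3703, or 11.1% (10.2 to 12.2%). Measured in bases, the double mark covered 9641624 of 22647663 bp of WT H3K4me3 territory (42.6%) and 371315 of 2781771 bp in EP (13.3%). EP minus WT, the share of peaks differed by -26.3 percentage points, an odds ratio of 0.210 (95% interval 0.188 to 0.233; Fisher's exact test, two-sided, p = 1.41e-245, adjusted over 6 tests 8.44e-245). With 1 H3K36me3 library per genotype there is no replicate error, and this and the later tests compare lists of peaks and not groups of mice. EP was the lower list on each of the 19 autosomes and on X, with autosomal shares of 8.04% (chromosome 10) to 16.2% (chromosome 6) in EP and 32.2% (chromosome 17) to 40.5% (chromosome 12) in WT.

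Sequence can be shown for the double-marked sites that reach an annotated promoter. Of the 3703 EP H3K4me3 peaks 50, and of the 412 double-marked ones 5, overlapped a promoter window of the RefSeq table (build GRCm38.p6, which shares its chromosome coordinates with mm10), which spans 250 bases before to 50 bases after a gene start. In EP 10% of the 50 H3K4me3 peaks that met such a window were double-marked (4.35 to 21.4%), and in WT 36.3% of 182 (29.6 to 43.5%), near the 11.1 and 37.4% of the whole lists. The table holds windows for 17492 of 21900 protein-coding genes and none for those of a whole chromosome, so these counts of peaks at promoters are minima. The 4 windows printed here are the ones that lay wholly inside the EP double mark, with each CG dinucleotide, the base pair step that most active promoters are rich in, in capitals. They belong to Dennd1b (a membrane trafficking regulator; chr1:138967471-138967770) and Sumo3 (a small ubiquitin-like modifier; chr10:77613459-77613758), and to the long non-coding RNA genes Gm46165 (chr1:154103613-154103912) and Gm36841 (chr5:116406430-116406729), each on the plus strand and written 5′ to 3′.
Dennd1b: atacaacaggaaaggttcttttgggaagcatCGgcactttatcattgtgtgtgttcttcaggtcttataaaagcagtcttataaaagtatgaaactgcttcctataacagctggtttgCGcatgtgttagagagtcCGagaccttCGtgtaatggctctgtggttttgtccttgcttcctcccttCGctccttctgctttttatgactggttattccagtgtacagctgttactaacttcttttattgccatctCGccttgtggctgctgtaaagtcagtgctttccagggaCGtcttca
Sumo3: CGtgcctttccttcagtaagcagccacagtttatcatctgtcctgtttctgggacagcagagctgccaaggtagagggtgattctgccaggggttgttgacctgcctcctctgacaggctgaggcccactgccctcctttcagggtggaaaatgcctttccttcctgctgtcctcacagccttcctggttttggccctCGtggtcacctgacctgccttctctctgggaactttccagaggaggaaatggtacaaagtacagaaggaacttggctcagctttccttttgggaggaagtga
Gm46165: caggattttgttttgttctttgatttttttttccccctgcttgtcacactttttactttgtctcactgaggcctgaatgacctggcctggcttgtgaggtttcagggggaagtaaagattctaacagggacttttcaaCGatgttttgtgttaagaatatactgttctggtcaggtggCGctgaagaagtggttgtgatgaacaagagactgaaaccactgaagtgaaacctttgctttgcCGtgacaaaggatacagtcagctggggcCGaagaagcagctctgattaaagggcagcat
Gm36841: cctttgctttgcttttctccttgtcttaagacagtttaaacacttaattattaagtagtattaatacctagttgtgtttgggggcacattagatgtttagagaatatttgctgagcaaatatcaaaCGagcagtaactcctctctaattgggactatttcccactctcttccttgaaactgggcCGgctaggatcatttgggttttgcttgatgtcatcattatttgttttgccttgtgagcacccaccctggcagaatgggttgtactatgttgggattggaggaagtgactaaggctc
The windows held 7, 2, 4 and 2 CG steps (a sequence that reads the same on both strands). Over all 32851 windows of the table the median was 7 (quartiles 3 and 20), and 94.6% held at least 1. The 5 windows at EP double-marked peaks had a median of 4 (quartiles 2 and 4), and the 49 at other EP H3K4me3 peaks also 4 (quartiles 2 and 5). In WT the medians were 3 over 73 windows at double-marked peaks and 4 over 126 at other peaks. The EP H3K4me3 interval at Dennd1b was 799 bp wide and that at Sumo3 751 bp, both wholly covered by the double mark, as were the WT intervals of 1873 and 883 bp. At Gm46165 the double mark covered 66.5% of an EP interval of 2200 bp and 74.3% of a WT interval of 3498 bp. Gm36841 had 51.6% of 1404 bp covered in EP and 92.0% of 2169 bp in WT. The fifth EP site, at the ion channel gene Trpv3, had 66 of its window's bases inside the double mark.

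Double-marking rose with the width of the H3K4me3 interval in both genotypes, and the EP share was the lower one in each width class. Among intervals under 500 bp, 8.27% of 375 were double-marked in WT (5.88 to 11.5%) and 5.40% of 889 in EP (4.10 to 7.09%). At 500 to under 750 bp the shares were 9.16% of 2992 (8.18 to 10.2%) and 6.09% of 1231 (4.89 to 7.57%), and at 750 to under 1000 bp 12.6% of 3973 (11.6 to 13.7%) and 9.75% of 790 (7.87 to 12.0%). The intervals of the 2 genotypes overlapped under 500 bp and at 750 to under 1000 bp. The distance widened from 1000 bp up. At 1000 to under 1500 bp WT had 41.5% of 6206 (40.3 to 42.8%) against 20.6% of 611 in EP (17.6 to 24.0%), and at 1500 bp or more 71.9% of 4881 (70.6 to 73.1%) against 47.3% of 182 (40.1 to 54.5%).

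**Figure D1:**
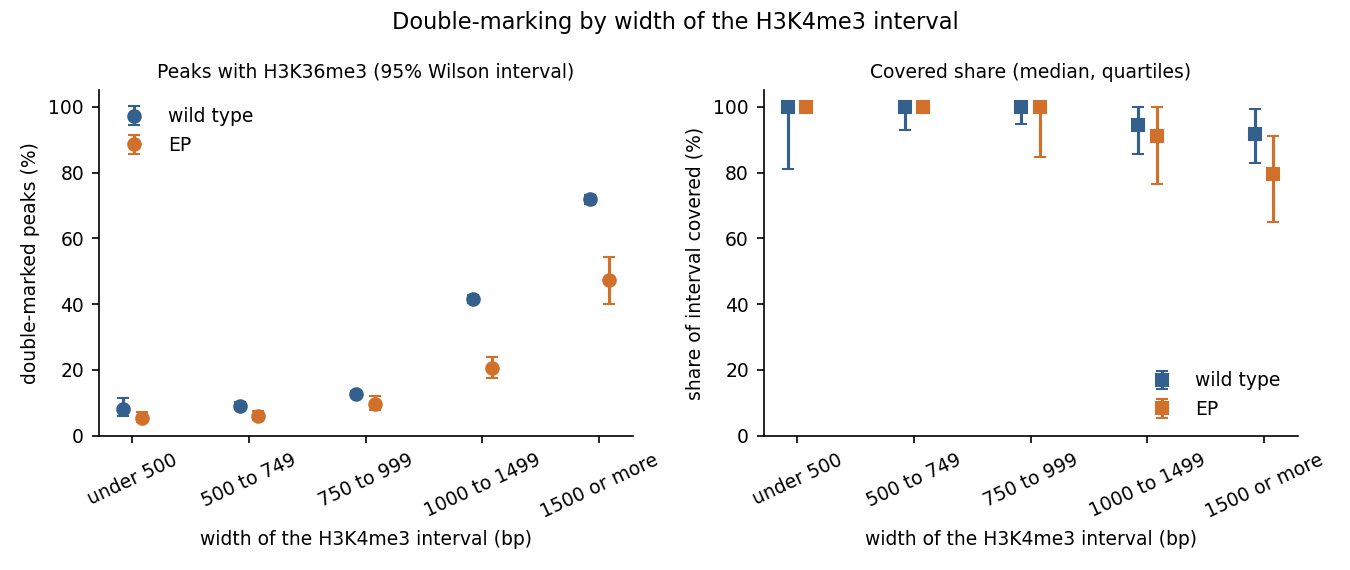
Left, percentage of H3K4me3 intervals that were double-marked, by interval width in bp, in WT (blue) and EP (orange), with 95% Wilson intervals. Right, percentage of each double-marked interval covered by the double mark (median, bars to the quartiles). EP points lie below WT at each width on the left, by most in the widest classes, and coverage of intervals of 1500 bp or more has a median of 91.7% in WT and 79.5% in EP.

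EP intervals were narrower. Those under 500 bp made up 24.0% of the EP list and 2.04% of the WT list, and those of 1500 bp or more 4.91 and 26.5%. Had the WT peaks had the EP widths, with the share of each width class kept, 18.1% of them would have been double-marked in place of 37.4%. Against this standardised share EP differed by -6.98 percentage points, and the Mantel-Haenszel odds ratio across the 5 width classes was 0.494 (95% interval 0.438 to 0.557).

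Where the double mark was present, it usually covered most of the H3K4me3 interval. The median covered share was 94.0% in WT (quartiles 84.5 and 100%) and 98.8% in EP (quartiles 76.1 and 100%). EP covered shares were spread more to both ends. The whole interval was covered at 205 of 412 EP peaks (49.8%, 45.0 to 54.6%) and at 2238 of 6892 WT peaks (32.5%, 31.4 to 33.6%). Less than 50% was covered at 20 EP peaks (4.85%, 3.16 to 7.38%) and at 48 WT peaks (0.696%, 0.526 to 0.922%). The smallest covered shares were 21.7% in EP and 20.1% in WT. The shortest double-marked intervals were 40 bp in EP and 108 bp in WT. Wholly covered EP intervals were short, with a median width of 764 bp against 1286 bp for partly covered ones. In WT these medians were 1312.5 and 1575 bp. The order of whole coverage was reversed at the 309 sites, compared below, where both genotypes carried the double mark. There the whole interval was covered at 131 sites in EP (42.4%) and at 183 in WT (59.2%).

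**Figure D2:**
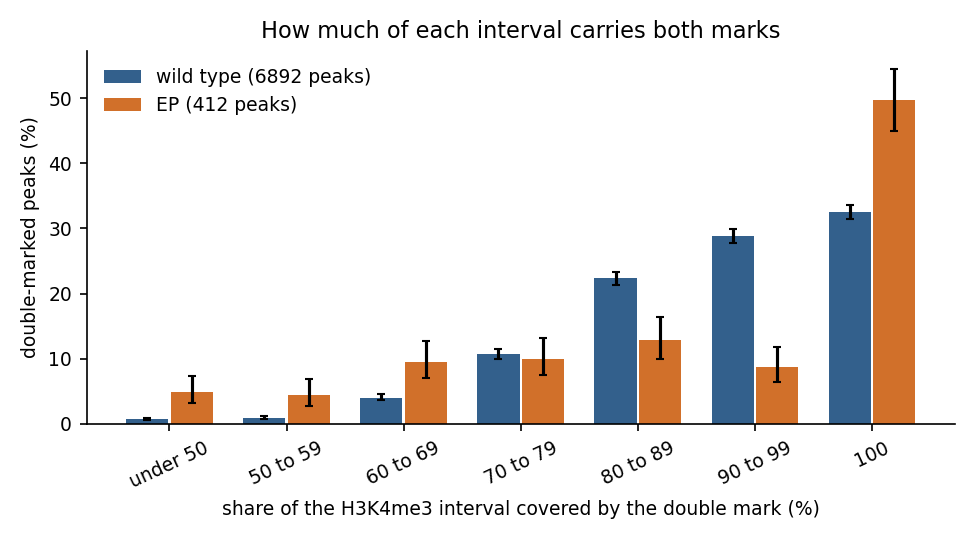
Percentage of double-marked H3K4me3 intervals (vertical axis, with 95% Wilson intervals) by the percentage of the interval that the double mark covers (horizontal axis), in WT (blue, 6892 peaks) and EP (orange, 412 peaks). EP exceeds WT in the wholly covered class (49.8 against 32.5%) and below 50% (4.85 against 0.696%), and WT exceeds EP between 80 and 99%.

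In the partly covered intervals the called double mark ended short of the called H3K4me3 interval. A median of 265 bp lacked the double mark in the 207 partly covered EP intervals and 182.5 bp in the 4654 of WT. The double-marked interval shared exactly 1 border with the H3K4me3 interval in 59.4% of the EP cases and 54.5% of the WT cases, and lay inside both borders in the others. Its centre was displaced from that of the H3K4me3 interval by a median of 6.89% of the interval's width in EP and 3.37% in WT. In intervals of 1500 bp or more the median covered share was 79.5% in EP (quartiles 65.0 and 91.1%, 86 peaks) and 91.7% in WT (82.8 and 99.2%, 3507 peaks).

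The 2 genotypes were next compared at the same sites. An EP H3K4me3 peak overlapped 3661 WT H3K4me3 peaks, which are called shared sites here. Of these, 1416 were double-marked in WT (38.7%) and 410 in EP (11.2%), which is -27.5 percentage points, EP minus WT. Both genotypes carried the double mark at 309 sites, WT alone at 1107, EP alone at 101 and neither at 2144 (exact McNemar test, two-sided, p = 1.40e-214, adjusted over 6 tests 4.19e-214). EP thus carried the double mark at 21.8% of the shared sites that had it in WT and at 4.50% of those that did not. The remaining 31 EP H3K4me3 peaks overlapped no WT peak, and 2 of them were double-marked.

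Sites with the double mark in both genotypes were the broadest. Their H3K4me3 intervals had a median width of 2307 bp in WT and 1147 bp in EP. Sites double-marked in WT alone came to 2004 and 874 bp, those in EP alone to 964 and 709 bp, and those in neither to 725.5 and 603 bp. Site by site, the EP H3K4me3 interval had a median of 0.555 of the WT width where both were double-marked, 0.458 in WT alone, 0.594 in EP alone and 0.811 in neither, and the part of this narrowing in the lower EP share was not tested. At sites with both, the EP double mark overlapped the WT double mark in all 309 cases and lay wholly inside it in 294 (95.1%). It had a median of 0.473 of the width of the WT double mark (quartiles 0.381 and 0.571), and the centres were a median of 123.5 bp apart. The EP double mark was the wider of the pair at 11 sites. Each double mark lies inside the H3K4me3 interval of its own genotype. WT was wholly covered at 183 of the 309 sites (59.2%) and EP at 131 (42.4%). Nesting and the smaller EP width thus follow in part from the narrower EP H3K4me3 intervals. Any further narrowing of the double mark was not tested.

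WT state still divided the sites after they were sorted by EP width. Among EP intervals of 1500 bp or more at shared sites, 61.1% of 126 were double-marked in EP where WT was (52.4 to 69.2%), and 16.1% of 56 where WT was not (8.69 to 27.8%). Among those under 500 bp, the shares were 14.2% of 183 (9.88 to 20.003%) and 2.98% of 671 (1.94 to 4.56%).

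Sites whose WT interval was covered more fully kept the double mark in EP more often. EP was double-marked at 5.34% of 131 sites with under 75% covered in WT (2.61 to 10.6%), and at 10.3% of 380 sites with 75 to under 90% (7.60 to 13.7%). The share was 18.0% of 444 sites with 90 to under 100% (14.7 to 21.9%) and 39.7% of 461 wholly covered sites (35.3 to 44.2%). The median H3K4me3 widths of the first 3 classes were 1880, 2104 and 2153 bp in WT and 721, 926.5 and 991.5 bp in EP, and those of the wholly covered sites 1822 and 811 bp. Of the wholly covered sites 73.5% lay in a protein-coding gene, against 35.9, 35.3 and 37.8% in the other classes in the order above. The part of width and of position in this order was not tested.

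**Figure D3:**
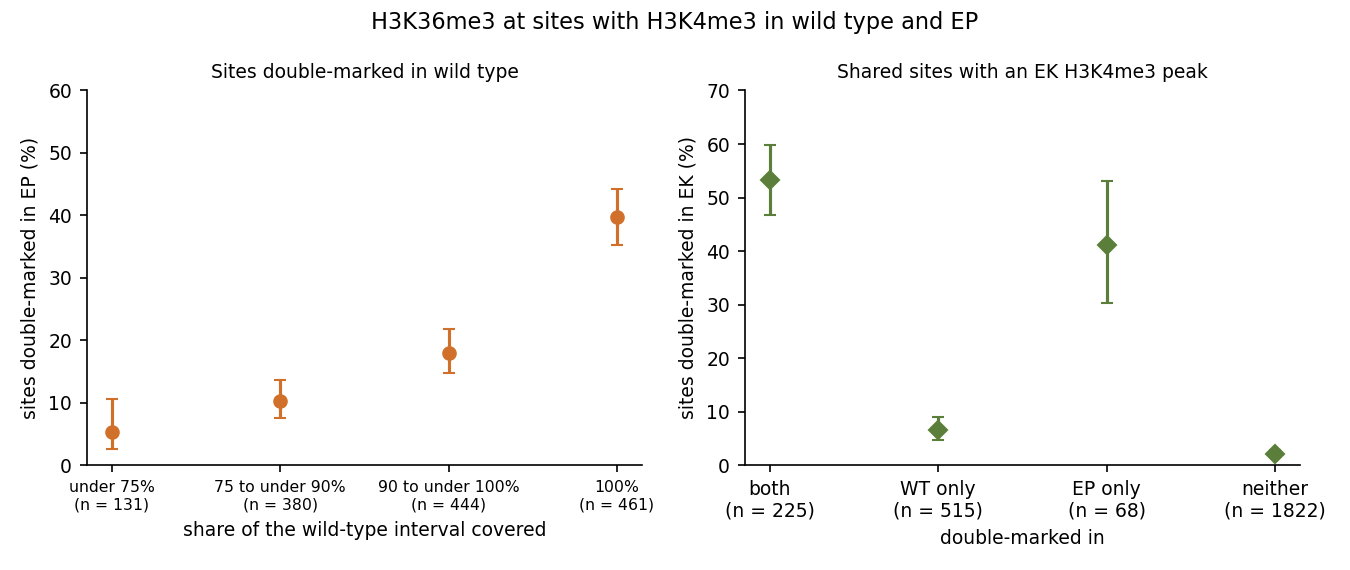
Left, percentage of the shared sites double-marked in WT that were also double-marked in EP, by how much of the WT interval was covered by the WT double mark. Right, percentage double-marked in EK by class of shared site (double-marked in both, WT only, EP only, neither), among sites with an EK H3K4me3 peak; bars are 95% Wilson intervals. The left share climbs from 5.34 to 39.7%, and on the right the classes double-marked in EP stand at 53.3 and 41.2% against 6.60 and 2.09%.

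The EK library, which shares no H3K36me3 reads with EP or WT, gave the same division. Of the shared sites double-marked in both WT and EP that also had an EK H3K4me3 peak, 120 of 225 were double-marked in EK (53.3%, 46.8 to 59.7%). Of those double-marked in EP alone, 28 of 68 were (41.2%, 30.3 to 53.0%). The share was 34 of 515 where only WT was double-marked (6.60%, 4.76 to 9.08%) and 38 of 1822 where neither was (2.09%, 1.52 to 2.85%). Over the whole EK list 243 of 3307 H3K4me3 peaks were double-marked (7.35%, 6.51 to 8.29%). The mutant libraries were both new data, which was not separated from genotype here.

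Position relative to genes also divided the genotypes. A peak was counted as in a gene when it overlapped the span of a protein-coding gene by 1 bp or more, with 21900 such spans in the RefSeq table. Of the EP double-marked peaks, 309 of 412 (75%) lay in genes, and of the WT ones 3417 of 6892 (49.6%), while the H3K4me3 lists as a whole stood at 58.0 and 54.0%. In genes, 14.4% of 2149 EP peaks were double-marked (13.0 to 15.9%) against 34.3% of 9949 WT peaks (33.4 to 35.3%), or -19.97 points, EP minus WT (p = 2.17e-82 by Fisher's exact test, two-sided, adjusted over 6 tests 2.60e-82). Outside genes, 6.63% of 1554 EP peaks (5.50 to 7.97%) stood against 41.0% of 8478 WT peaks (39.9 to 42.0%), or -34.4 points (p = 1.64e-183 by Fisher's exact test, adjusted 3.28e-183). WT exceeded EP by 2.39 times in genes and 6.18 times outside them, with widths not matched. With WT shares taken at the EP widths, the differences were -4.76 points in genes and -10.4 points outside.

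The odds of double-marking in genes over those outside were 2.37 in EP (95% interval 1.87 to 2.99) and 0.753 in WT (0.709 to 0.800). Their ratio, EP over WT, was 3.14 (2.47 to 3.997). In EK the odds ratio was 3.11 (2.26 to 4.28), which was 1.32 times that of EP (0.886 to 1.95), an interval that includes 1. EP double-marking was commoner in genes than outside on 18 of the 19 autosomes, and WT double-marking was rarer in genes on 18 of the 19. Chromosome 10 was the exception in both lists, with 6.72% in genes and 10% outside in EP, and 37.5 and 37.3% in WT.

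**Figure D4:**
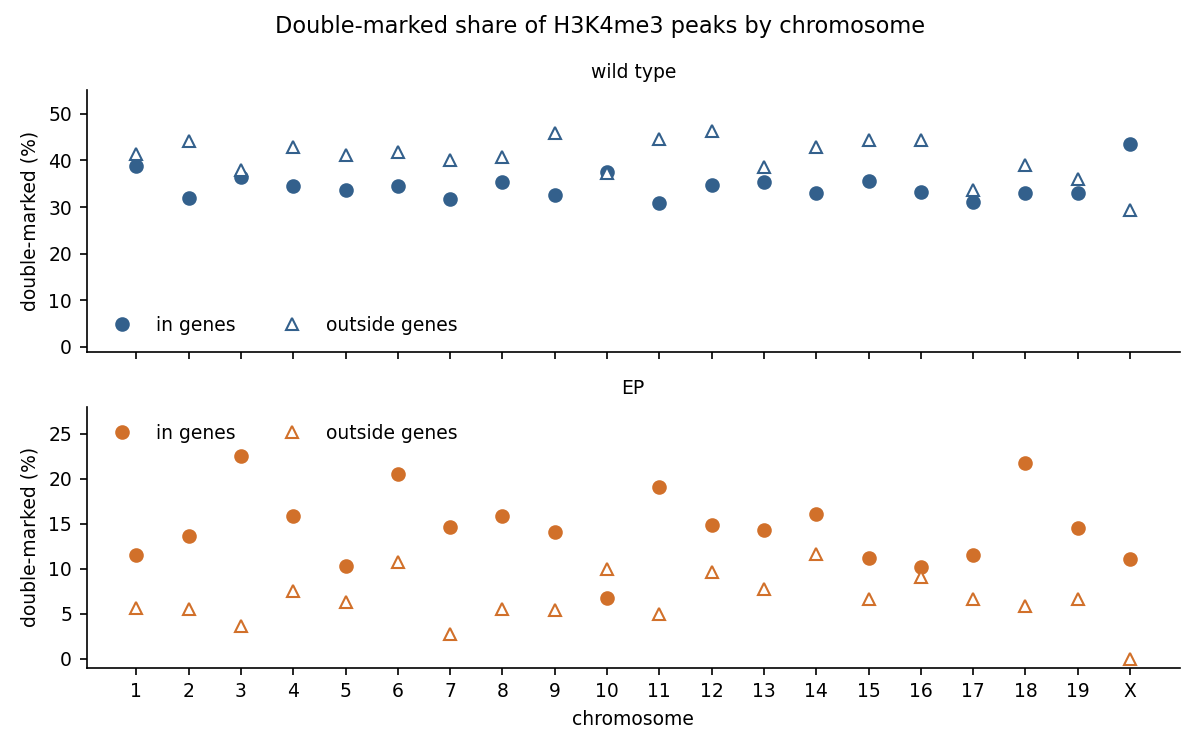
Percentage of H3K4me3 peaks that were double-marked on each autosome and X, in protein-coding genes (filled circles) and outside them (open triangles), for WT (top) and EP (bottom, with its own scale). WT triangles lie above the circles on 18 of 19 autosomes and EP triangles below them on 18 of 19; on X the WT order is the opposite of most autosomes.

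The WT order depended on width, which the pooled odds ratio hides. Under 1000 bp, 13.9% of 3940 WT peaks in genes (12.8 to 15.0%) and 7.68% of 3400 outside (6.83 to 8.62%) were double-marked, an odds ratio of 1.93 (1.66 to 2.26). At 1000 bp or more it was 47.8% of 6009 in genes against 63.3% of 5078 outside, an odds ratio of 0.531 (0.492 to 0.573). The widest WT class, 1500 bp or more, held double marks at 90.9% of 2152 peaks outside genes (89.6 to 92.0%) and 56.8% of 2729 in genes (54.97 to 58.7%). In the same class EP held them at 36 of 72 outside genes (50%, 38.7 to 61.3%) and 50 of 110 in genes (45.5%, 36.5 to 54.8%), with intervals that overlap. In EP the odds ratio was 5.79 (3.76 to 8.93) under 1000 bp and 1.32 (0.953 to 1.82) at 1000 bp or more, where 29.0% of 459 peaks in genes and 23.7% of 334 outside were double-marked. EP over WT the ratio of these odds ratios was 2.99 (1.89 to 4.74) below 1000 bp and 2.48 (1.78 to 3.46) above.

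**Figure D5:**
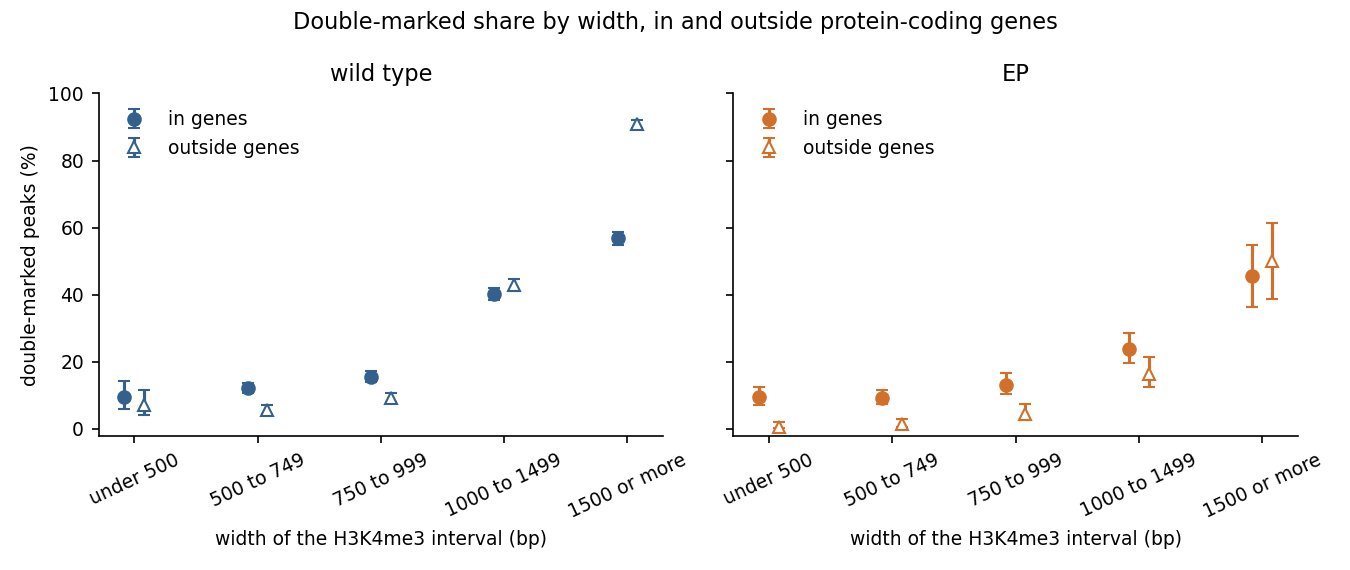
Percentage of H3K4me3 peaks that were double-marked by interval width in bp, in protein-coding genes (filled circles) and outside them (open triangles), for WT (left) and EP (right), with 95% Wilson intervals. In WT the triangles pass the circles from 1000 bp up and reach 90.9% against 56.8%, while in EP they stay below the circles in each class under 1500 bp and lie near 0 under 750 bp.

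Narrow EP peaks outside genes almost never carried both marks. Under 500 bp it was 3 of 413 (0.726%, 0.247 to 2.11%) and at 500 to under 750 bp 7 of 493 (1.42%, 0.689 to 2.90%). Such peaks outside genes were seldom double-marked in WT too, at 13 of 184 (7.07%, 4.18 to 11.7%) and 79 of 1381 (5.72%, 4.61 to 7.07%). In genes, 9.45% of 476 EP peaks under 500 bp (7.14 to 12.4%) and 9.21% of 738 at 500 to under 750 bp (7.33 to 11.5%) were double-marked, against 9.42% of 191 and 12.1% of 1611 in WT. At the EP widths, the WT share would have been 19.1% in genes and 17.0% outside. The Mantel-Haenszel odds ratio of EP against WT was 0.649 (0.562 to 0.748) in genes and 0.247 (0.194 to 0.315) outside.

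The same held at shared sites. Of the 688 sites in genes that were double-marked in WT, EP kept the double mark at 213 (31.0%, 27.6 to 34.5%), and of the 728 outside genes at 96 (13.2%, 10.9 to 15.8%). Of the 1452 sites in genes without the WT double mark, 97 had it in EP (6.68%, 5.51 to 8.08%), and of the 793 outside genes 4 did (0.504%, 0.196 to 1.29%). Of the 101 sites double-marked in EP alone, 97 thus lay in genes (96.0%, 90.3 to 98.4%), compared with 68.9% of sites double-marked in both (63.6 to 73.8%), 42.9% in WT alone (40.0 to 45.8%) and 63.2% in neither (61.1 to 65.2%). WT exceeded EP both in genes, where 475 sites were double-marked in WT alone (exact McNemar test, p = 8.75e-61, adjusted over 6 tests 8.75e-61), and outside, where 632 were (exact McNemar test, p = 4.77e-182, adjusted 7.15e-182). Among the 774 shared sites outside genes with a WT interval under 1500 bp and no WT double mark, EP had none, and a count of 0 allows a share of up to 0.494% by the Wilson interval.

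Coverage was fuller in genes than outside them in both genotypes. In genes the double mark covered the whole H3K4me3 interval at 184 of 309 EP peaks (59.5%, 54.0 to 64.9%) and 1638 of 3417 WT peaks (47.9%, 46.3 to 49.6%). Outside genes it did so at 21 of 103 EP peaks (20.4%, 13.7 to 29.2%) and 600 of 3475 WT peaks (17.3%, 16.05 to 18.6%). The median covered share outside genes was 81.0% in EP and 90.2% in WT, while in genes it was 100 and 98.9%. Among peaks of 1000 bp or more, whole coverage in genes was found at 53 of 133 in EP (39.8%, 31.9 to 48.3%) and 1212 of 2871 in WT (42.2%, 40.4 to 44.0%), with intervals that overlap. Outside genes it was 8 of 79 in EP (10.1%, 5.22 to 18.7%) and 475 of 3214 in WT (14.8%, 13.6 to 16.05%), again with overlapping intervals. At this width EP was the lower one in both places, while over all widths it was the higher one.

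Along the gene no trend in the EP share was seen. With genes cut into 3 equal parts from the 5′ to the 3′ end, 14.4, 12.6 and 15.4% of the EP peaks in each part were double-marked (106 of 738, 63 of 501 and 73 of 473), with Wilson intervals that overlap. The WT shares were 34.4, 32.8 and 33.4%. Strand was taken from the RefSeq promoter table, so genes without a window there were left out, including those of a whole chromosome.

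Among named sites, those double-marked in both genotypes with the widest EP double mark lay in genes of varied function. At Capzb, which encodes the beta subunit of the actin capping protein, the WT interval on chromosome 4 (139204946 to 139210032) was 5087 bp wide and 98.6% covered, and the EP interval 2413 bp and 97.5% covered. At Sptbn5, a beta spectrin gene, the intervals measured 3057 bp in WT (chromosome 2, 120064996 to 120068052) and 2019 bp in EP, both wholly covered. Fto, which encodes an RNA demethylase, had 3162 bp in WT (chromosome 8, 91617072 to 91620233) and 1759 bp in EP, again both wholly covered. Myo1d, a class I myosin gene, had a fully covered pair of 2748 bp (chromosome 11, 80715082 to 80717829) and 1751 bp. Each of these intervals was narrower in EP, and coverage was at or near the whole interval. Naming sites by the widest EP double mark favours EP intervals that are fully covered. Over all 309 sites double-marked in both genotypes the median covered share was 93.4% in EP and 100% in WT. At the endocytic adaptor gene Fcho1 the WT interval of 2665 bp (chromosome 8, 71718674 to 71721338) was wholly covered and the EP interval of 1840 bp 94.5% covered. At Fat4, an atypical cadherin gene, coverage was 97.5% of 2874 bp in WT (chromosome 3, 38955227 to 38958100) and 100% of 1716 bp in EP. EK was double-marked at Capzb, Sptbn5 and Myo1d and had H3K4me3 alone at the other 3.

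Sites double-marked in WT alone were named by the width of their EP H3K4me3 interval. Among the widest EP intervals at genes with the double mark in WT alone was that at Egfl6, a secreted EGF-like protein gene, with 2055 bp in EP and 71.0% of 3080 bp covered in WT (chromosome X, 166534802 to 166537881). St8sia1, a sialyltransferase gene, had 1911 bp in EP and 88.8% of 3554 bp covered in WT (chromosome 6, 142860293 to 142863846). Sema5a, a semaphorin gene for axon guidance, had 1766 bp in EP and 74.4% of 2219 bp covered in WT (chromosome 15, 32323470 to 32325688). The double-marked EP intervals at Fto and Myo1d measured 1759 and 1751 bp. At Tmprss7, a transmembrane serine protease gene, 84.0% of 2919 bp was covered in WT (chromosome 16, 45682555 to 45685473) and the EP interval was 1734 bp. Syt2, which encodes a calcium sensor of synaptic vesicles, had 2531 bp wholly covered in WT (chromosome 1, 134670288 to 134672818) and 1719 bp in EP. EK was double-marked at St8sia1 and had H3K4me3 alone at the other 4 sites named here.

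Sites double-marked in EP alone were named by the width of the EP double mark, which favours broad intervals: over all 101 such sites the WT H3K4me3 interval had a median of 964 bp (quartiles 660 and 2199 bp). Dennd1a, a regulator of membrane trafficking, had 88.2% of 2887 bp covered in EP and 0 of 3850 bp in WT (chromosome 2, 38135673 to 38139522). Dock3, a guanine nucleotide exchange factor gene, had 1810 bp wholly covered in EP against 3372 bp without the double mark in WT (chromosome 9, 107050327 to 107053698). At both genes EK was double-marked as well. AW554918 had 1775 bp in EP and 3186 bp in WT (chromosome 18, 25306047 to 25309232), also with the double mark in EK. Tg, the thyroglobulin gene, had 1683 bp in EP and 2719 bp in WT (chromosome 15, 66693801 to 66696519). Ubr1, a ubiquitin ligase gene, had 1664 bp in EP and 2744 bp in WT (chromosome 2, 120914249 to 120916992), and at Tg and Ubr1 EK had H3K4me3 alone. AW554918, Tg and Ubr1 were wholly covered in EP.

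Among shared sites in genes with a WT interval of 1500 bp or more, 319 lacked the double mark in WT, and EP had it at 40 of them (12.5%, 9.35 to 16.6%). The share was 57 of 1133 (5.03%, 3.90 to 6.46%) where the WT interval was narrower, and 14.4% over all EP peaks in genes. EK had it at 18 of the 111 wider sites with an EK peak (16.2%, 10.5 to 24.2%) and at 47 of 1049 narrower ones (4.48%, 3.39 to 5.91%). The share over all EK peaks in genes was 10.2%, and over the whole EK list 7.35%. Outside genes only 19 shared sites of this width lacked the WT double mark. Of these, 4 were double-marked in EP (21.1%, 8.51 to 43.3%), beside 6.63% of all EP peaks outside genes, which are of every width. At sites of this width outside genes with the WT double mark, EP had it at 85 of 597 (14.2%, 11.7 to 17.3%). EK had it at 1 of the 12 sites without the WT double mark that had an EK peak (8.33%, 1.49 to 35.4%).

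Genes of meiotic recombination and of the synaptonemal complex were listed separately. All 53 listed genes were found in the annotation, and 16 held 21 WT H3K4me3 peaks, 3 of them double-marked (14.3%, beside 34.3% of all WT peaks in genes and 37.4% of the whole list). Those 3 were 2 of the 4 peaks in Tex11, an X-linked meiotic gene, and the peak in Majin, whose product attaches telomeres to the nuclear envelope. EP had H3K4me3 peaks in 2 genes of the list, Hormad1 and Iho1, both needed for meiotic double-strand breaks, and neither was double-marked, beside 14.4% of all EP peaks in genes and 11.1% of the whole list. EK had 1 peak in each of these genes, double-marked in Hormad1 and not in Iho1. A site at the edge of Hsf2bp, whose product helps bring BRCA2 to meiotic breaks, was double-marked in EP and not in WT. Its WT interval (chromosome 17, 31942535 to 31945151) reached into the gene span, whose lowest coordinate is 31944769. The wholly covered EP interval of 1355 bp ended outside that span at 31944636. Which end of the gene this border is was not determined here.

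Several genes held more than 1 double-marked EP site. EP H3K4me3 peaks lay in 1825 protein-coding genes, and double-marked ones in 298. Of the 285 genes with at least 2 EP peaks, all peaks were double-marked in 8, some in 62 and none in 215, beside the 14.4% of all EP peaks in genes that were double-marked; whether double-marked peaks gather in the same genes was not tested. The 15 genes with 2 double-marked EP peaks, named after their values were seen, included Tex14, which is needed for the bridges between germ cells (2 of 3 EP peaks, 2 of 4 WT peaks). Ube3a, a ubiquitin ligase gene, had both of its peaks double-marked in both genotypes. Tnrc6a, a gene of microRNA-guided silencing, had 2 of 2 double-marked in EP and 0 of 4 in WT.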

How the data were processed

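ChIP-seq of H3K4me3 and H3K36me3 in mouse spermatocytes was used as the peak lists the authors deposited, 1 H3K4me3 list and 1 double-marked list per genotype. Chromatin of formaldehyde-fixed nuclei was cut with micrococcal nuclease, per the labels' protocols. The protocol text names an anti-H3K4me3 antibody for every library, and the antibody label of the H3K36me3 libraries names H3K36me3. Per the deposited description, the build is mm10, lists were confined to known PRDM9-dependent sites of an earlier series, and the WT and EP H3K4me3 lists were taken over from it. Trimmomatic, BWA 0.7.9a and MACS 1.4 are named in the submitters' processing notes, without settings; the peak threshold is not given in the sources used here. The deposited values are start and end coordinates only, with no score or count, so the depth behind a peak is unknown.

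Overlaps were computed in Python 3.11.15 (pandas 2.3.3), counting those of 1 bp or more; printed coordinates count from 1. Each double-marked interval lay inside an H3K4me3 interval of its genotype. Shares have 95% Wilson intervals, which cover counting of peaks only. Fisher's exact and exact McNemar tests (SciPy 1.17.1, two-sided) were adjusted by Benjamini-Hochberg over 6 tests; odds ratios have Wald or Mantel-Haenszel 95% intervals. The overlap code was tested on simulated intervals. Width classes had edges at 500, 750, 1000 and 1500 bp. Genes were spans of the RefSeq table (GRCm38.p6); exons and introns were not analysed here. Distances to start sites were not used, since the promoter table lacks windows for some protein-coding genes, including those of a whole chromosome. Signal tracks were not used here.

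Named sites are shared sites in protein-coding genes (symbols beginning with Gm or ending in Rik left out): up to 6 each double-marked in both genotypes, in EP alone (widest EP double mark first) and in WT alone (widest EP H3K4me3 interval first), plus promoter sites and sites of the meiotic gene list. Some sites that the rule names are not reported here. Members, lists and rules were chosen with earlier results of these data known. Alternatives are given in the closing section.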

Additional observations from a re-analysis of the deposited data

Results flagged for a closer look

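The contrast between peaks in protein-coding genes and peaks outside them differed between the genotypes. The odds ratio of double-marking in genes over outside was 3.14 times as high in EP as in WT (95% interval 2.47 to 3.997), on 3703 EP and 18427 WT peaks. The interval counts peaks and not mice, with 1 H3K36me3 library per genotype, so it compares these lists only. EP H3K36me3 came from new data and WT H3K36me3 from earlier data, and the part of library source in this difference was not tested.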

How the results depend on the processing

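Of 61 recomputed values, 56 kept their direction and their side of the threshold, or stayed within the interval of the value reported. The difference between EP and WT over whole lists ran from -26.6 to -25.1 percentage points, and at shared sites from -31.7 to -26.7, across a demand for 50% coverage, a width of at least 500 bp, merging of peaks within 500 bp, autosomes only and, at shared sites, 50% overlap or counting over EP peaks. The median covered share ran from 93.8 to 94.2% in WT and from 96.6 to 100% in EP. The width-standardised difference was -8.28 points without peaks under 500 bp, which leaves fewer narrow peaks, and from -7.15 to -6.80 otherwise. Chosen after seeing the data, WT shares at the EP widths brought the difference to -4.76 points in genes and -10.4 outside. Also added were width limits: the WT odds ratio of double-marking in genes over outside was 1.93 under 1000 bp, a reversal, and the EP one 1.32 at 1000 bp or more, no longer past the threshold; the causes were not tested. The EP over WT ratio of these odds ratios ran from 2.48 to 4.66 over its 8 alternatives, which were likewise added after seeing the data. No paired analysis was possible because each genotype has 1 pooled list per kind, so replicate numbers pair no libraries (the McNemar tests pair sites), and for the same reason no replicate could be left out. Without scores or read counts, a site missing from a list was not detectable there rather than absent.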

Other observations

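On the X chromosome 9 of 135 EP H3K4me3 peaks were double-marked, and all 9 were among the 81 in protein-coding genes (11.1%), with none of the 54 outside. WT had 128 of 294 in genes (43.5%) and 96 of 328 outside (29.3%), the reverse of the order on 18 of the 19 autosomes. The Y chromosome held 8 WT peaks, 2 of them double-marked, and 1 EP peak, which was not.

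Genes hosting WT double-marked peaks were longer than genes hosting other WT peaks, with a median span of 181.6 kb (quartiles 73.6 and 410.5 kb, 3369 peaks) against 104.1 kb (48.2 and 238.6 kb, 6435 peaks), counting peaks in a single gene. In EP the medians were 94.2 kb (30.8 and 210.2 kb, 305 peaks) and 100.7 kb (41.6 and 229.4 kb, 1810 peaks). These spans are given as a description and were not tested.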
